A study of Mus musculus with 6 samples.

Results

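Genes for the proteins that coat liver lipid droplets, enlarge them or control their emptying were compared between control and *Mttp-IKO* mice on a diet that causes steatohepatitis. The group was defined by gene symbol and not by any measured value, and held 10 genes of the 41388 that were counted: the perilipins *Plin2*, *Plin3*, *Plin4* and *Plin5*, the CIDE genes *Cidea*, *Cideb* and *Cidec*, the lipase gene *Pnpla2* with the gene of its inhibitor, *G0s2*, and the droplet enzyme gene *Hsd17b13*. All 10 were found by symbol, and 9 had enough reads to be tested among 17287 genes.

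A lipid droplet is a core of triglyceride and cholesteryl ester under a single phospholipid layer, and the proteins on that layer decide how much lipid the droplet keeps. Perilipins cover the surface and limit access of lipases, CIDE proteins exchange lipid between droplets that touch, and adipose triglyceride lipase, encoded by *Pnpla2*, cuts the first fatty acid from triglyceride. In liver the amount of perilipin 2 protein follows the amount of stored fat, and fatty acids released by the lipase serve as fuel and as ligands of PPAR-alpha.

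Liver RNA came from male mice on a C57BL/6 background, 12 to 16 weeks old, that carried floxed *Mttp* alleles and a Villin Cre ERT2 transgene. *Mttp* encodes the microsomal triglyceride transfer protein, which loads lipid onto apolipoprotein B, and the Villin promoter is active in intestinal epithelium, so the *Mttp-IKO* mice lack the protein in the intestine and not by design in the liver. *Mttp-IKO* mice received tamoxifen at 50 µg/g per day for 5 days, and controls, which the labels call wild type, were littermates given vehicle, so an effect of tamoxifen itself cannot be told apart from that of the deletion. From 3 weeks after the injections both groups were fed a methionine- and choline-deficient (MCD) diet for 3 weeks, and livers were taken after a 4 h fast. Each of the 3 pools per genotype was made from RNA of 3 to 4 mice, while the labels speak of 12 livers, so each of the 6 values below averages several mice and the spread between pools is narrower than that between mice. No pool came from mice on a normal diet.

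The pools held 25271585 to 36238734 reads on genes, and the albumin transcript of hepatocytes stood at 40131 to 132236 CPM, the usual unit of read counts scaled to the size of the library. The makeup of the pools differed, in some markers along with the genotype and in others in single pools. The summed CPM of 8 macrophage markers was 807 to 1678 in control pools and 464 to 599.6 in *Mttp-IKO* pools, with 2 of the 8 called lower by edgeR and 5 by DESeq2. Of 8 stellate cell markers, 4 were called lower by edgeR, and DESeq2 called 5 lower and 1 higher, and their sum was 847 to 1497 CPM against 459.9 to 515 CPM. For 8 hepatocyte markers the sum was 54173 to 89585 CPM in control pools and 106807 to 162221 CPM in *Mttp-IKO* pools. Albumin made up most of this sum. None of the 8 was called by edgeR and 3 were called higher by DESeq2. The log2 fold changes of 7 lay above 0. That of *Ttr* lay below, with 2808 to 3828 CPM in control pools and 1466 to 2740 CPM in *Mttp-IKO* pools. In bulk liver, fewer cells of a type and less RNA per cell cannot be told apart. Control pool 2 stood apart in striated muscle markers (2082 CPM, against 6.56 to 269 CPM in the other pools). *Mttp-IKO* pool 3 had 1.85% of its mRNA-gene reads on genes shorter than 1000 nucleotides (nt), where the other pools had 4.00% to 4.30%. The part of these differences in the results below was not tested, except where a value is given with and without a pool or a length trend.

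None of the 9 members tested passed an adjusted p of 0.05 between genotypes (edgeR quasi-likelihood test, adjusted over all genes tested), while 4.01% of all genes did. At an unadjusted p under 0.05, 2 of the 9 stood out, *Pnpla2* toward higher and *G0s2* toward lower levels in *Mttp-IKO* pools, against 23.0% of all genes. The 3 values of one genotype lay wholly apart from those of the other for 2 of the 9, *Plin5* and *Pnpla2*, against 31.0% of all genes. This separation depended on the TMM scaling of library sizes, with a factor of 1.11 in control pool 1 and 0.977 in *Mttp-IKO* pool 1. Scaled by total reads alone, control pool 1 lay above *Mttp-IKO* pool 1 for both genes. A second tool, DESeq2, called 1 of the 9, *Pnpla2*, and 11.6% of all genes. These shares of the members lie near those of the genes at large. The median absolute log2 fold change was 0.375 over the members and 0.330 over all genes tested.

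**Figure D1:**
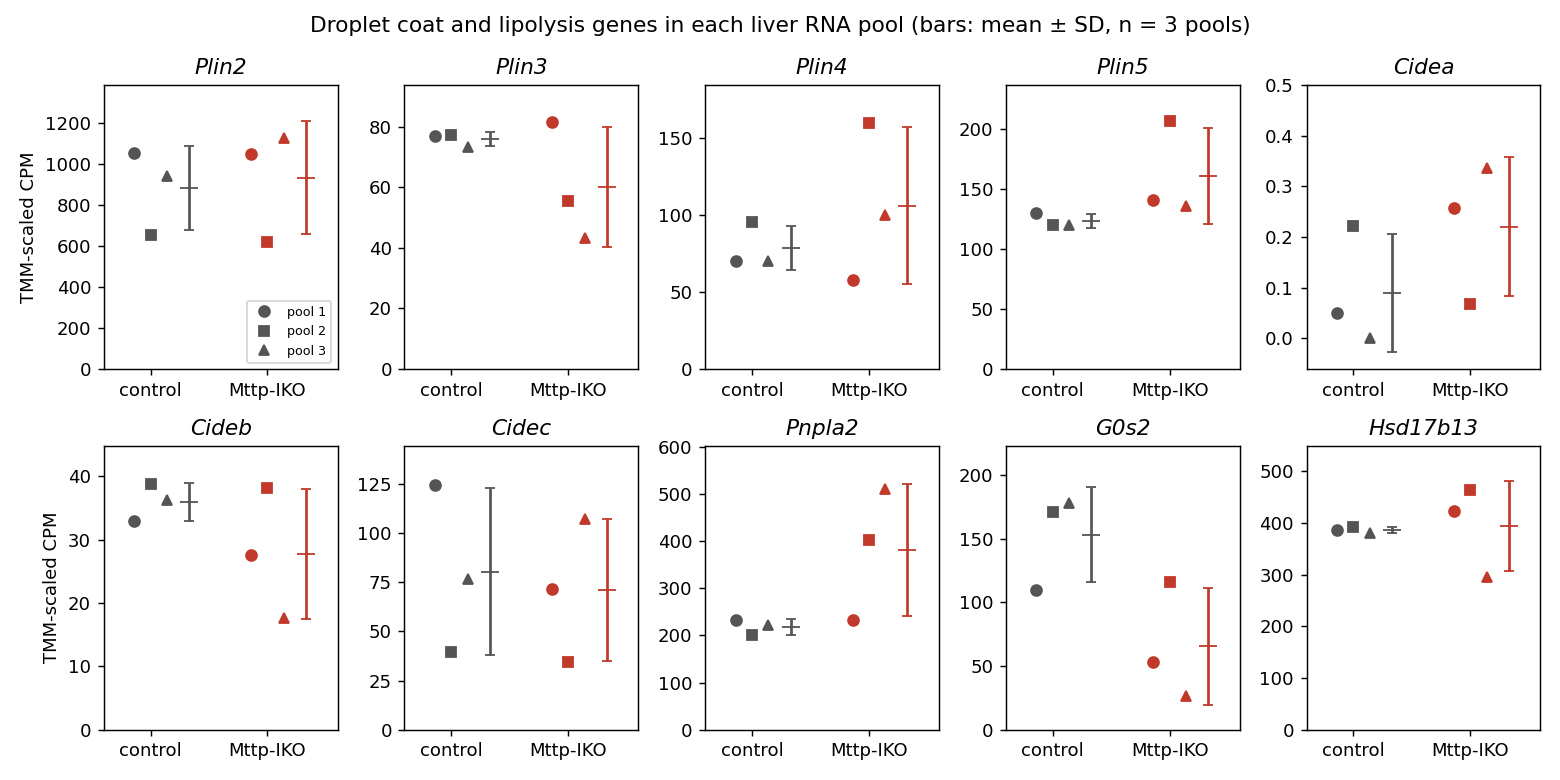
TMM-scaled CPM (y axis, with its own scale in each panel) of the 10 members in the 3 control (grey) and 3 *Mttp-IKO* (red) pools, with a symbol for each pool number and, beside the points, a tick and bar for the mean and SD of each genotype. *Pnpla2* reaches 401 and 511 CPM in *Mttp-IKO* pools 2 and 3 and *G0s2* is at 26.8 CPM in pool 3, while *Plin2* and *Hsd17b13* have nearly equal means in both genotypes.

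Per length, the members covered a wide range. By CPM per kilobase of exon (RPKM), averaged over the 6 pools, *Plin2* was highest with 258, followed by *Hsd17b13* with 181, *G0s2* with 129.8 and *Pnpla2* with 99.2. *Plin5* followed with 68.05, *Cidec* with 40.8, *Plin3* with 31.5, *Cideb* with 21.3 and *Plin4* with 15.98, and *Cidea* came last with 0.134. Across the pools neighbours in this order overlapped, apart from *Cidea*. *Plin2* spanned 175 to 321 RPKM and *Hsd17b13* 137 to 215 RPKM, *G0s2* 31.8 to 212 RPKM and *Pnpla2* 66.3 to 169 RPKM. The order of the means differed between genotypes for *G0s2*. In control pools *G0s2* (182 ± 44.5 RPKM; SD, n = 3) was level with *Hsd17b13* (179 ± 2.56 RPKM) and above *Pnpla2* (72.1 ± 5.28 RPKM). In *Mttp-IKO* pools *G0s2* (77.7 ± 54.4 RPKM) was level with *Plin5* (77.1 ± 19.1 RPKM) and its mean was below that of *Pnpla2* (126 ± 46.5 RPKM).

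*Plin2* encodes the main perilipin of the fatty hepatocyte. The gene (ENSMUSG00000028494) lies on the minus strand at chr4:86648386-86670060 (GRCm38) and has 3512 nt of exon sequence. *Plin2* was at 1050.4, 653 and 941 CPM in control pools 1, 2 and 3 and at 1049, 616 and 1127 CPM in *Mttp-IKO* pools 1, 2 and 3. Pool 2 was the lowest of each genotype, and the genotypes overlapped across their whole range. The means were 882 ± 205 and 931 ± 275 CPM (SD, n = 3 pools), and edgeR gave a log2 fold change of 0.08 with an adjusted p of 0.898. The 95% interval ran from -0.58 to 0.74, that is from 0.667-fold to 1.67-fold, so a change of moderate size in either direction was not detectable with 3 pools. These are RNA levels, and the read counts hold no measure of perilipin 2 protein or of stored fat. The 250 bases before the RefSeq start of *Plin2* (chr4:86670060-86670309, minus strand, GRCm38.p6) are shown because perilipin 2 is a textbook target of PPAR-alpha, whose binding element is built from the letters AGGTCA. Capitals mark AGGTCA, the E-box CACGTG, the CCAAT box and the GC box GGGCGG on either strand, here AGGTCA read on the opposite strand 218 to 213 bases before the start and a CCAAT box 73 to 69 bases before it.
Plin2: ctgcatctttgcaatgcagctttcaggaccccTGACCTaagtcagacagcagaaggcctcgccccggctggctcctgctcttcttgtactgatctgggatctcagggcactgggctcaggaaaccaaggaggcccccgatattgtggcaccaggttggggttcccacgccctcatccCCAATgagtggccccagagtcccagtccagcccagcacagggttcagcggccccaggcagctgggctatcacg
A match describes letters and not a bound site. AGGTCA was present in 14% of the 32851 RefSeq mouse promoters of this length and in 3 of the 11 windows of the members (*Plin2*, *Plin5* and *Hsd17b13*). A direct repeat of these letters with a single base between the copies occurred in 0.0335% of promoters, the same repeat of AGGNCA in 0.338%, and neither in a window of a member.

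*Plin3* and *Plin4* encode perilipins that also occur in the cytosol and move to growing droplets. *Plin3* (ENSMUSG00000024197, chr17:56278962-56290511) was at 76.9, 77.4 and 73.2 CPM in control pools and at 81.7, 55.5 and 43.1 CPM in *Mttp-IKO* pools. The control values were close to each other (SD 2.28), and *Mttp-IKO* pool 1 lay above all of them while pools 2 and 3 lay below. The log2 fold change was -0.34 (95% interval -0.86 to 0.19, adjusted p = 0.420, edgeR), and came to -0.14 without *Mttp-IKO* pool 3 and -0.62 without *Mttp-IKO* pool 1. *Plin4* (ENSMUSG00000002831, chr17:56100591-56109803) was at 70.2, 95.3 and 70.3 CPM in control pools and at 58.1, 159.6 and 100.2 CPM in *Mttp-IKO* pools. Its lowest and its highest value were both from *Mttp-IKO* pools. The log2 fold change was 0.43 (95% interval -0.35 to 1.21, adjusted p = 0.482, edgeR) and came to 0.0091 without *Mttp-IKO* pool 2.

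*Plin5* encodes the perilipin of tissues that burn fat, which binds the lipase and its activator on the droplet. The gene (ENSMUSG00000011305) lies at chr17:56111601-56117596 on the minus strand, 1797 bases from *Plin4*. *Plin5* was at 129.6, 119.5 and 120.2 CPM in control pools and at 140.6, 206.8 and 135.4 CPM in *Mttp-IKO* pools. On this TMM-scaled measure all 3 *Mttp-IKO* pools lay above all 3 control pools, pools 1 and 3 by little and pool 2 by far. The means of 123 ± 5.62 and 161 ± 39.8 CPM (SD, n = 3) gave a log2 fold change of 0.39 (95% interval -0.07 to 0.85, adjusted p = 0.290, edgeR), and 0.17 without *Mttp-IKO* pool 2. *Plin4* and *Plin5*, neighbours on the chromosome, thus had their highest value in the same pool.

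Among the perilipins *Plin2* held most of the summed RPKM in every pool. Its share was 73.1%, 62.9% and 72.1% in control pools and 72.2%, 53.5% and 75.8% in *Mttp-IKO* pools. That of *Plin5* was 15.2%, 19.4% and 15.5% in control pools and 16.3%, 30.2% and 15.3% in *Mttp-IKO* pools. The shares of *Plin2* and *Plin5* in *Mttp-IKO* pools 1 and 3 were therefore close to those in control pools 1 and 3, while *Plin3* took 4.72% in *Mttp-IKO* pool 3 against 8.71% and 9.12% in these control pools. Pool 2 of each genotype had the smallest share of *Plin2* and the largest share of *Plin5*. By level, *Plin5* in control pool 2 was the lowest of the controls (57.3 RPKM). The ratio of *Plin2* to *Plin5* was 4.82, 3.25 and 4.65 in control pools and 4.43, 1.77 and 4.94 in *Mttp-IKO* pools, with a two-sided exact permutation p of 0.7 on the log2 scale (n = 3).

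The CIDE genes encode proteins at droplet contacts, and CIDEC (also called FSP27) enlarges droplets by passing lipid from the smaller to the larger. *Cidec* (ENSMUSG00000030278, chr6:113424634-113435760, minus strand) was at 124, 39.6 and 76.8 CPM in control pools and at 71.5, 34.5 and 107 CPM in *Mttp-IKO* pools. The 6 values interleaved, with the lowest of each genotype in pool 2. The log2 fold change was -0.18 with a wide 95% interval of -1.28 to 0.92 (adjusted p = 0.855, edgeR). *Cidec* and *Plin2* ranked the pools alike at the low end, with *Mttp-IKO* pool 2 lowest and control pool 2 next. Control pool 2 also held 55 reads of the adipokine gene *Adipoq*, where the other pools held 0 to 4, and 67 reads of the fat cell perilipin gene *Plin1*, where the others held 0 to 7. The same pool held 592 reads of *Cfd* and 33 of *Retn*, against 0 to 35 and 0 to 6 in the others, so that 6 of 8 adipocyte markers were highest there, while *Lep* had 0 or 1 read in every pool. The summed level of the 8 was 22.9 to 36.0 CPM in control pools, mostly from *Fabp4* in pools 1 and 3, and 2.47 to 12.1 CPM in *Mttp-IKO* pools. Fat cells also express *Cidec*, and their part in its values was not tested. For comparison with *Plin2*, the 250 bases before the distal of the RefSeq starts of *Cidec* (chr6:113435761-113436010, minus strand, GRCm38.p6) are given with the same marking, and they hold none of these letters.
Cidec: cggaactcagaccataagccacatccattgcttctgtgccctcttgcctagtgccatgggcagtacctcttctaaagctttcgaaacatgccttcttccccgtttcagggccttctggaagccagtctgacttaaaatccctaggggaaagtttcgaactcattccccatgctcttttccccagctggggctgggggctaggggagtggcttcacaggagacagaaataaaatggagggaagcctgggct
An E-box CACGTG, present in 6.02% of promoters, occurred in no window of a member.

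*Cideb*, the CIDE gene of hepatocytes, is linked to the lipidation of very-low-density lipoprotein. It (ENSMUSG00000022219, chr14:55754045-55758458) was at 32.9, 38.8 and 36.3 CPM in control pools and at 27.5, 38.1 and 17.6 CPM in *Mttp-IKO* pools. *Mttp-IKO* pool 2 lay within the control range and pools 1 and 3 below it. The log2 fold change was -0.38 (95% interval -0.98 to 0.23, adjusted p = 0.427, edgeR), and came to -0.13 without *Mttp-IKO* pool 3 and -0.67 without *Mttp-IKO* pool 2. Of its 1493 exon bases 1141 also belong to exons of *Nop9* on the other strand. Whether reads were counted by strand is not stated, so these values are uncertain. *Cidea*, the CIDE gene of brown fat that also appears in fatty liver, had 2, 8 and 0 reads in control pools and 8, 2 and 8 reads in *Mttp-IKO* pools and was not tested. A count of 0 allows up to 3 reads, or 0.0744 to 0.126 CPM at these library sizes. The ratio of *Cidec* to *Cideb* by RPKM ranged from 0.823 to 3.05 in control pools and from 0.728 to 4.89 in *Mttp-IKO* pools (two-sided exact permutation p = 0.8, n = 3).

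The widest differences between genotypes among the members lay in the lipase gene and in that of its inhibitor. *Pnpla2* encodes adipose triglyceride lipase, and the gene (ENSMUSG00000025509) lies on the plus strand at chr7:141455198-141460743. *Pnpla2* was at 231.6, 200.3 and 221.4 CPM in control pools and at 232.1, 401.4 and 510.7 CPM in *Mttp-IKO* pools. *Mttp-IKO* pool 1 stood at the control level and pools 2 and 3 well above it. The means were 218 ± 15.9 and 381 ± 140.3 CPM (SD, n = 3), a log2 fold change of 0.81 (95% interval 0.17 to 1.45), or 1.75-fold. The adjusted p was 0.140 by edgeR and 0.0484 by DESeq2, and over the alternatives run it lay between 0.0484 and 0.369. The log2 fold change stayed between 0.54 and 1.07 over the 6 fits that each left out 1 pool.

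*G0s2* encodes a small protein that binds the lipase and blocks it. The gene (ENSMUSG00000009633) lies on the minus strand at chr1:193272161-193273188 and has only 842 nt of exon sequence. *G0s2* was at 110.02, 171 and 178 CPM in control pools and at 53.5, 116 and 26.8 CPM in *Mttp-IKO* pools. *Mttp-IKO* pools 1 and 3 lay below every control pool, and pool 2 lay between control pool 1 and the other controls. With means of 153 ± 37.5 and 65.4 ± 45.8 CPM (SD, n = 3), the log2 fold change was -1.23 (95% interval -2.32 to -0.13), or 0.428-fold. The adjusted p was 0.177 by edgeR and 0.0557 by DESeq2. *Mttp-IKO* pool 3, the lowest, is the pool with few reads on short genes, and its trend with gene length came to -0.33 on the log2 scale at the length of *G0s2*. With the length trend of each pool removed, *G0s2* was at 106, 164 and 165 CPM in control pools and at 50.5, 114 and 33.7 CPM in *Mttp-IKO* pools, and the log2 fold change was -1.14 (adjusted p = 0.151, edgeR). Without *Mttp-IKO* pool 3 it was -0.85, and without *Mttp-IKO* pool 2 it was -1.93.

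As *G0s2* protein acts on the lipase, the levels of both transcripts were set against each other within each pool. The ratio of *G0s2* to *Pnpla2* by RPKM was 1.70, 3.06 and 2.89 in control pools and 0.826, 1.04 and 0.188 in *Mttp-IKO* pools. Every control pool thus had more inhibitor than lipase transcript per length, every *Mttp-IKO* pool had a lower ratio than any control pool, and pool 2 of the *Mttp-IKO* mice had about equal levels. On the log2 scale the means were 1.30 ± 0.466 and -0.88 ± 1.34 (SD, n = 3), a difference of -2.18, or 4.54-fold. The two-sided exact permutation p was 0.1, which is the smallest that 3 pools against 3 can give. The ratio does not depend on library scaling, and with the length trend removed the difference was -2.08, with ratios of 1.67, 2.99 and 2.72 against 0.778, 1.03 and 0.225. Without any 1 pool the values gave differences of -2.65 to -1.42. The pair was part of the gene group from its definition, and this ratio was chosen with earlier results of these data known.

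**Figure D2:**
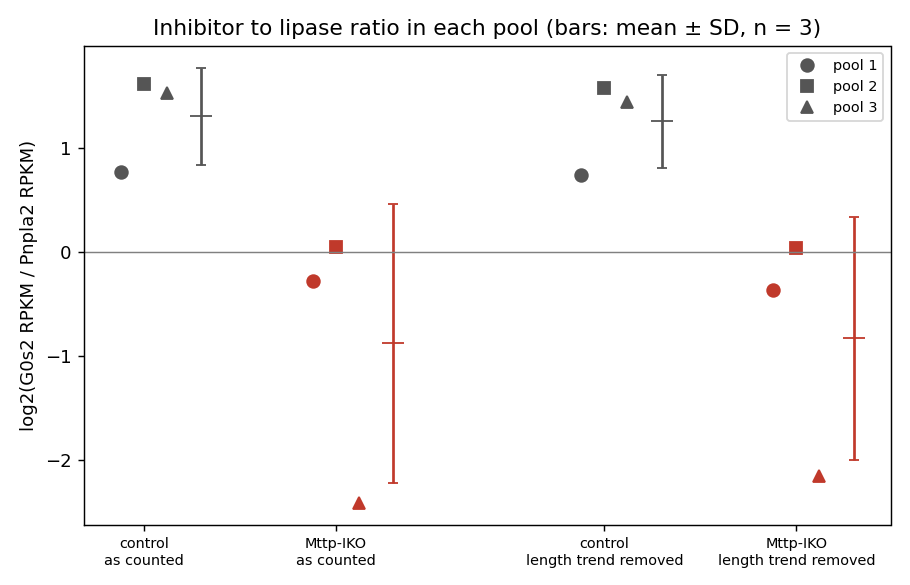
Log2 ratio of *G0s2* to *Pnpla2* by RPKM (y axis) in each control (grey) and *Mttp-IKO* (red) pool, as counted on the left and with the length trend of each pool removed on the right, with a symbol for each pool number and a tick and bar for the mean and SD of each genotype. As counted, the control pools lie between 0.77 and 1.61 and the *Mttp-IKO* pools between -2.41 and 0.05, where 0 stands for equal levels.

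The 250 bases before the RefSeq starts of *Pnpla2* (chr7:141454938-141455187, plus strand, GRCm38.p6) and *G0s2* (chr1:193273189-193273438, minus strand) are given because these genes carried the widest differences, in opposite directions. Capitals mark the same motifs as before, and both windows hold only GC boxes, GGGCGG, which bind factors of the SP family.
Pnpla2: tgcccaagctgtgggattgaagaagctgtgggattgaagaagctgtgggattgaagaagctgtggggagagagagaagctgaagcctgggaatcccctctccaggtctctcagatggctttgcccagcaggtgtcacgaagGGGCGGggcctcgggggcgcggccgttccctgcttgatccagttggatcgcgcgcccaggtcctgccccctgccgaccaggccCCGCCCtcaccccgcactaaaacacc
G0s2: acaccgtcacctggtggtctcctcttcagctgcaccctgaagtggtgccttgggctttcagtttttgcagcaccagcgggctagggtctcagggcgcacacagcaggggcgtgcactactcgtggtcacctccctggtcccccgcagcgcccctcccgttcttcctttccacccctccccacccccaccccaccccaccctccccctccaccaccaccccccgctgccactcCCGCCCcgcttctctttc
In *Pnpla2* the boxes lie 109 to 104 and 26 to 21 bases before the start, and in *G0s2* the box lies 18 to 13 bases before it. GGGCGG was present in 32.7% of all promoters and in 6 of the 11 windows of the members, which belong to 5 genes (*G0s2*, *Pnpla2*, *Plin3*, *Plin5* and *Cideb*). CCAAT was present in 33.8% of all promoters and in 4 of the 11 windows (*Plin2*, *Plin3*, *Plin4* and *Plin5*). TATAAA was present in 12.4% and in 1 window, that of *Cideb*. The windows of *G0s2* and *Pnpla2* had 67.2% and 63.2% G and C, against a median of 52.4% over all promoters.

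*Hsd17b13* encodes a hydroxysteroid dehydrogenase on hepatocyte droplets. It (ENSMUSG00000034528, chr5:103955440-103977410) was at 385.7, 392.5 and 381.5 CPM in control pools and at 422, 464 and 296 CPM in *Mttp-IKO* pools. The control pools lay within a narrow band, with *Mttp-IKO* pools 1 and 2 above it and pool 3 below. The means of 387 ± 5.53 and 394 ± 87.6 CPM (SD, n = 3) gave a log2 fold change of 0.03 (95% interval -0.44 to 0.50, adjusted p = 0.954, edgeR).

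The spread between pools was itself unequal. The SD of log2(CPM + 0.5) was larger in *Mttp-IKO* than in control pools for 8 of the 9 members tested, all but *Cidec*, and for 69.4% of all genes. Without *Mttp-IKO* pool 3 it was larger for 8 of the 9 members and for 47.0% of all genes. That SD is over *Mttp-IKO* pools 1 and 2 alone and was set against the SD of all 3 control pools. An SD of fewer pools is less certain. The coefficient of variation of *Hsd17b13* was 1.43% in control and 22.2% in *Mttp-IKO* pools, that of *Plin3* 3.01% and 32.7%, and that of *Pnpla2* 7.32% and 36.8%. The smallest differences in spread were those of *Plin2* with 23.3% and 29.6% and *Cidec* with 53.0% and 51.1%. The *Mttp-IKO* pools departed from the control mean in partly different members, as the map of pools shows. *Mttp-IKO* pool 1 differed most in *G0s2*, which was low. *Mttp-IKO* pool 2 was low in *Cidec*, its widest departure (-1.22 on the log2 scale), where control pool 2 was at -1.02. *Mttp-IKO* pool 2 was high in *Plin4*, *Plin5* and *Pnpla2*. *Mttp-IKO* pool 3 was high in *Pnpla2* and low in *G0s2*, *Plin3* and *Cideb*. These are descriptions of 3 pools a genotype, with no test.

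**Figure D3:**
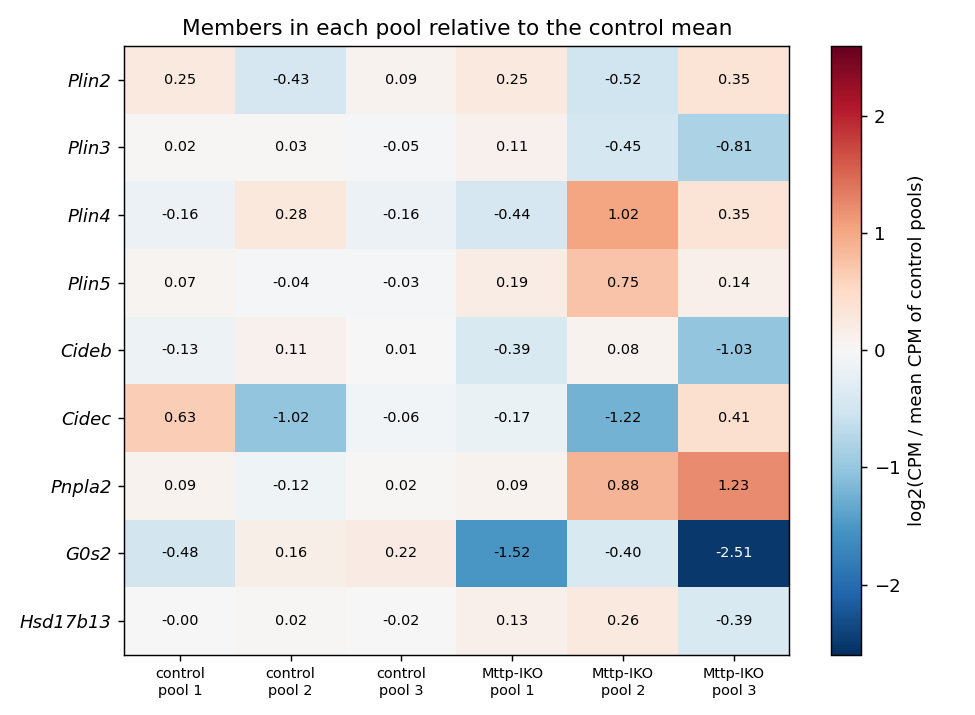
Log2 of the CPM of each tested member in each pool over its mean CPM in the 3 control pools (colour and printed value), with members in rows and pools in columns. *Mttp-IKO* pool 3 is lowest for *G0s2* (-2.51) and highest for *Pnpla2* (1.23), and *Mttp-IKO* pool 2 is highest for *Plin4* and *Plin5*.

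The wider machinery of the droplet was read through 29 further genes in 4 lists, of which 28 were tested. By edgeR 1 of these was called higher and 1 lower, against 4.01% of all genes called in either direction. DESeq2 called 5, against 11.6% of all genes, with *Nsdhl*, *Pnpla3* and *Ppargc1a* higher and *Fitm1* and *Mettl7b* lower. The log2 fold changes of 19 lay above 0 and those of 9 below, and the median was 0.10, against 0.0057 over all genes. The genotypes did not overlap for 12 of the 28, against 31.0% of all genes. The gene called lower by edgeR was *Fitm1* (chr14:55575617-55576952), 1 of 8 genes of droplet formation. *Fitm1* is the muscle-enriched member of the FIT family that helps droplets bud from the endoplasmic reticulum. It was at 6.45, 9.81 and 8.46 CPM in control pools and at 2.192, 2.503 and 2.769 CPM in *Mttp-IKO* pools, so that no values overlapped. *Fitm1* fell to means of 2.49 ± 0.289 from 8.24 ± 1.70 CPM (SD, n = 3; log2 fold change -1.73, adjusted p = 0.0181, edgeR). Striated muscle markers summed to 269, 2082 and 6.56 CPM in control pools 1, 2 and 3 and to 13.3, 17.9 and 17.1 CPM in *Mttp-IKO* pools. The part of muscle RNA in the *Fitm1* values was not tested. *Fitm1* has 969 nt of exon sequence, and with the length trend removed its log2 fold change was -1.57 (adjusted p = 0.0249, edgeR).

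The gene called higher by edgeR was *Nsdhl* (chrX:72918557-72958514), 1 of 7 tested genes of other surface proteins. It encodes an enzyme of cholesterol synthesis that resides on droplets. *Nsdhl* was at 14.01, 37.7 and 26.7 CPM in control pools and at 72.6, 121 and 102 CPM in *Mttp-IKO* pools. It rose from 26.1 ± 11.8 to 98.5 ± 24.4 CPM (SD, n = 3; log2 fold change 1.92, adjusted p = 0.0327, edgeR), with every *Mttp-IKO* pool above every control pool. Neither call held in edgeR fits without control pool 1, control pool 3, *Mttp-IKO* pool 1 or *Mttp-IKO* pool 2, where the adjusted p was 0.0551, 0.0752, 0.0613 and 0.0998 for *Fitm1* and 0.0840, 0.129, 0.0613 and 0.129 for *Nsdhl*. Over the pools left out the log2 fold change was -1.90 to -1.60 for *Fitm1* and 1.59 to 2.26 for *Nsdhl*.

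Of 7 genes of lipolysis and its regulators none passed by edgeR with all pools, and DESeq2 called 1, *Pnpla3*. *Pnpla3*, a droplet lipase homolog that is induced by feeding, was at 1.19, 1.52 and 0.906 CPM in control pools and at 3.45, 2.98 and 2.01 CPM in *Mttp-IKO* pools, with no overlap (log2 fold change 1.22, adjusted p = 0.0809 by edgeR and 0.0121 by DESeq2). Without *Mttp-IKO* pool 3 its edgeR adjusted p was 0.0483. *Hilpda*, another inhibitor of the lipase, was at 8.16, 3.80 and 7.06 CPM in control pools and at 6.16, 3.74 and 26.6 CPM in *Mttp-IKO* pools, where pool 3 alone was high (log2 fold change 0.93, adjusted p = 0.444). *Lipa*, the lysosomal acid lipase gene, was at 295, 239 and 304 CPM against 206, 200.2 and 242 CPM, with *Mttp-IKO* pool 3 just above control pool 2 (log2 fold change -0.37, adjusted p = 0.256). *Abhd5*, which encodes the activator of the lipase and was chosen after its values were seen, was at 19.2, 17.1 and 15.9 CPM in control pools and at 23.1, 15.8 and 20.1 CPM in *Mttp-IKO* pools. The genotypes thus overlapped for the activator.

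None of 6 transcriptional regulators passed by edgeR with all pools, and DESeq2 called 1, *Ppargc1a*. *Ppargc1a*, a coactivator of fatty acid oxidation, was at 29.0, 40.6 and 38.1 CPM in control pools and at 45.5, 98.5 and 95.7 CPM in *Mttp-IKO* pools, with no overlap (log2 fold change 1.15, adjusted p = 0.0724 by edgeR and 0.00526 by DESeq2). Its edgeR adjusted p was 0.0413 with the replicate block, 0.0393 with no filter on low counts and 0.0476 without *Mttp-IKO* pool 1. *Foxo1*, which in liver promotes transcription of the lipase gene in fasting, was at 65.0, 59.1 and 59.2 CPM against 65.4, 81.8 and 142 CPM (log2 fold change 0.66, adjusted p = 0.203). *Mttp-IKO* pools 2 and 3 were thus the high ones for *Pnpla2*, *Ppargc1a* and *Foxo1* alike, and pool 1 was near the controls for *Pnpla2* and *Foxo1*. This order was not particular to these genes. The hepatocyte marker *Hnf4a* was at 868, 1203 and 1318 CPM in *Mttp-IKO* pools 1, 2 and 3. *Cyp2e1*, *Ass1* and *Tat* were also lowest in pool 1 of these pools, while *Alb*, *Apoa1*, *Ttr* and *Apoc3* were lowest in pool 3. A link between the regulators and *Pnpla2* was not tested. *Srebf1*, which drives lipid synthesis, was at 179, 171 and 208 CPM against 114, 124 and 164 CPM, with no overlap (log2 fold change -0.47, adjusted p = 0.192 by edgeR). Without *Mttp-IKO* pool 3 its edgeR adjusted p was 0.0473. *Ppara*, named after its values were seen, had a log2 fold change of 0.14 (adjusted p = 0.724, edgeR).

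**Figure D4:**
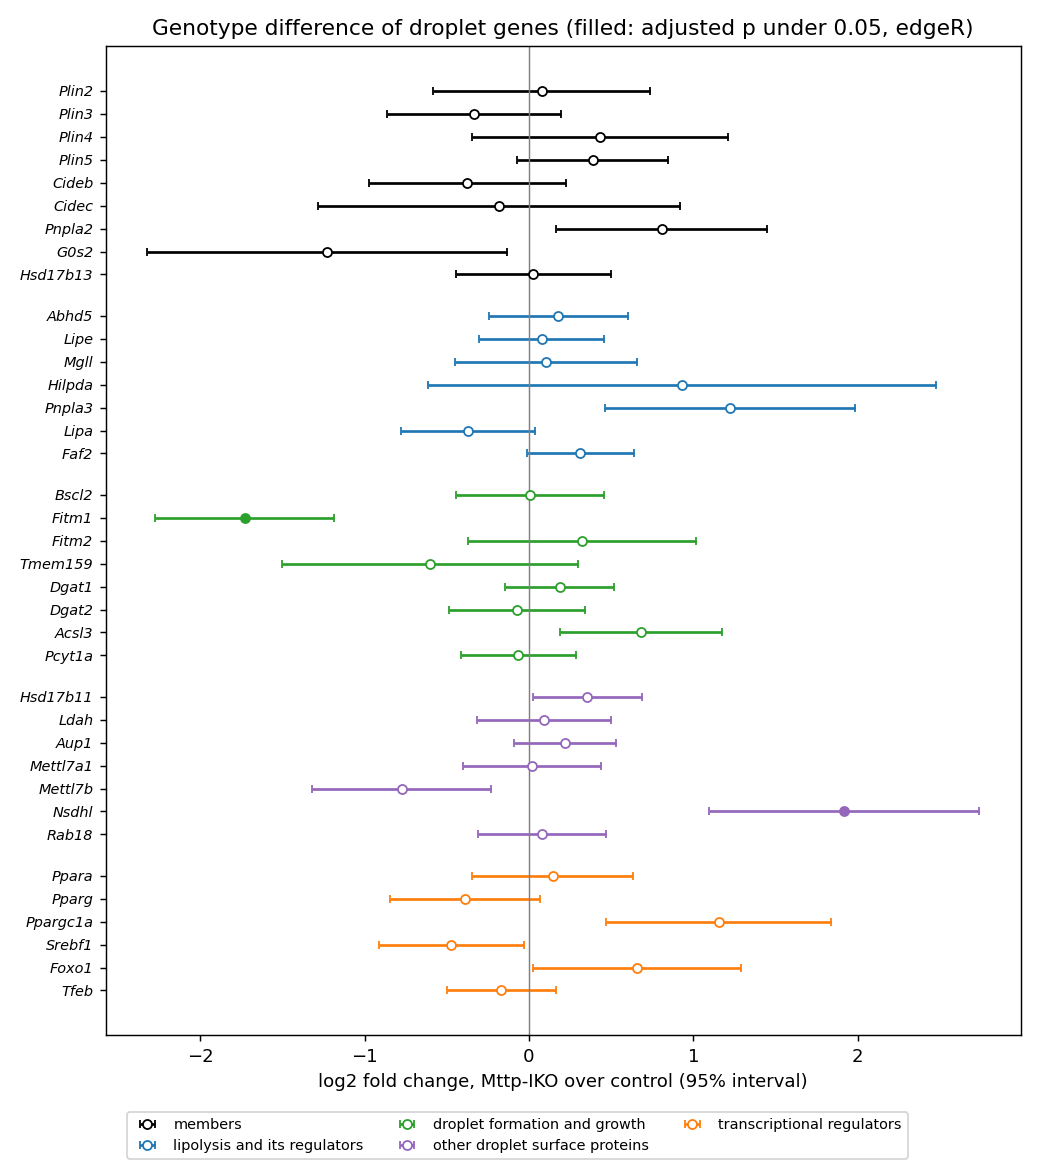
Log2 fold change of *Mttp-IKO* over control (x axis) with its 95% interval from the edgeR fit for the 9 members and the 28 tested genes of the 4 lists, coloured by list, with filled points for an adjusted p under 0.05. The only filled points are *Fitm1* at -1.73 and *Nsdhl* at 1.92, and among the members the intervals of *Pnpla2* and *G0s2* alone leave out 0.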

How the data were processed

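RNA-Seq of 6 liver RNA pools was analysed. The authors depleted ribosomal RNA (KAPA RiboErase), aligned reads with STAR 2.5.1a to GRCm38 and deposited, for each pool, the read count per gene from featureCounts 1.4.6-p5, not normalized. The deposited CPM and RPKM of the authors follow from these counts, so only the counts were used. The deposited table of all pools lists 40481 of the 41388 genes, with 276 repeated lines that were dropped. CPM and RPKM given above are scaled here by TMM (factors 0.898 to 1.11).

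Genes were kept by filterByExpr (minimum count 10, minimum total 15). Genotypes were compared with glmQLFit and glmQLFTest of edgeR 4.0.16 (R 4.3.3), p-values were adjusted by the Benjamini-Hochberg method over all 17287 tested genes, genes with an adjusted p under 0.05 were called, and the 95% intervals are those of single genes. This called 694 genes, 159 higher and 535 lower. The study states no tool for this comparison. The length trend was a loess curve (span 0.3) of each pool against gene length. Ratios were compared by exact permutation over pools. The tests were checked on simulated counts. These held large planted changes and the same spread in both genotypes, so the check covers the code and not the calls above.

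Alternatives were DESeq2 1.42.0, voom of limma 3.58.1, other scalings, no filter, a fit of protein-coding genes alone, a replicate block, the length trend, and fits without each pool. The members and gene lists were chosen with earlier results of these data known. Named are all members, and of each list the genes called, or otherwise up to 3 with the largest absolute log2 fold change; correlations between genes were not used. A pool averages its mice, so p-values measure only the spread between pools. Limits from a count of 0 cover counting error only. Promoters are those of RefSeq on GRCm38.p6, found for 9 of the 10 members, and *Cidea* had none. Figures were drawn with matplotlib 3.10.9 (Python 3.11.15).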

Additional observations from a re-analysis of the deposited data

How the results depend on the processing

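The count of all genes called moved from 694 to 1995 with DESeq2 and to 428 with limma-voom, and lay between 0 (without *Mttp-IKO* pool 2, with 3221 at an unadjusted p under 0.05) and 892 (without control pool 2) when pools were left out. The count of members called moved from 0 to 1 with DESeq2 (*Pnpla2*) and ranged from 0 to 0 over the pools left out by edgeR, where 2 of the 9 had an unadjusted p under 0.05 with all pools. The count of list genes called moved from 2 to 5 with DESeq2 and lay between 0 and 5 with pools left out. With the replicate number as a block, 592 genes, 0 members and 3 list genes were called. The pools with the same number correlated at 0.139, 0.112 and 0.00698 in their deviations from the genotype means. Every pool but *Mttp-IKO* pool 3 correlated best with the pool of its own number. *Mttp-IKO* pool 3 correlated at 0.0208 with control pool 2 and at 0.00698 with control pool 3. The main fit did not pair the pools by number, and whether the numbers mark pairs was not tested. *Plin2* changed sign with total counts alone (-0.10), *Hsd17b13* with total counts (-0.16) and limma-voom (-0.0028), settings under which the median of all genes was -0.17 and -0.02. With pools left out, *Plin2* ranged from -0.12 to 0.30, *Hsd17b13* from -0.11 to 0.20 and *Cidec* from -0.60 to 0.26, with values of 0.26 without control pool 1 and 0.15 without *Mttp-IKO* pool 2. None of these passed the threshold, and the cause was not tested. *Pnpla2*, *Plin4* and *Plin5* stayed above 0 and *G0s2*, *Plin3* and *Cideb* below it under all 15 alternatives, with *G0s2* between -1.93 and -0.85.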
